A study of Mus musculus with 11 samples.

Results

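A set of genes with little published work in sensory neurons was taken from a comparison of mouse trigeminal ganglia with and without the transcription factor Brn3a. The genes were Fam102b, Mtus2, Bves, Plcxd2, Ube2ql1, Dclk3, Zdhhc22, Eepd1, Lyrm9 and Olfm1, 10 in all. They were picked because their signal was low in knockout ganglia and because they stood outside the usual lists of neuronal genes. All probe sets annotated to exactly 1 of them were taken, which gave 17 of the 24899 probe sets in the series, 2 of 12488 on the U74Av2 array and 15 of 12411 on the U74Bv2 array. The 10 genes are among 13676 named on the arrays, and none of them is on both array types. The signal in knockout ganglia chose these genes, so every difference between knockout and the other genotypes is given below as a description and not as a test.

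Trigeminal ganglia, which hold the sensory neurons of the face, came from mouse embryos at embryonic day 13.5 that were labelled Brn3a Knockout, Brn3a Heterozygote or Brn3a Wildtype. The submitters chose this age because axon defects are present in the mutants while the large loss of sensory neurons is still to come. Each array was hybridised with RNA pooled from about 10 to 12 ganglia of 1 genotype. On U74Av2 there were 2 knockout, 2 heterozygote and 2 wild-type arrays, and on U74Bv2 2 knockout, 2 heterozygote and 1 wild-type array. Strain, sex and the parts of Pou4f1 removed in the knockout are not given in the labels, and no label says whether the pools on both array types were the same. The p-values measure the spread between arrays of a genotype, and the labels do not say whether these held separate pools. On U74Bv2 the lone wild-type array adds nothing to that spread. Precision is bounded by how few arrays there are.

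Brn3a, encoded by Pou4f1, is a POU-domain homeodomain protein of sensory neurons that binds AT-rich DNA and acts after neurons have left the cell cycle. Without it, trigeminal neurons are formed but their axons grow abnormally and many of them die later. The 10 genes belong to no common pathway. They encode microtubule-associated, membrane, lipid-modifying, ubiquitin-conjugating, kinase, nuclease-like, mitochondrial-family and secreted proteins, and most of them are known from other tissues.

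The values are MAS5 signals, a linear measure of a probe set's brightness that cannot be set against the signal of another probe set. Before taking log2, 50 was added to each U74Av2 signal and 49.8 to each U74Bv2 signal, and the differences given on this scale understate the change of dim probe sets. Errors on differences are standard errors (SE) from the limma fit to all arrays of a type. Pou4f1 itself had signals of 549.8 and 904.3 in the knockouts, 2196.0 and 3570.1 in the heterozygotes and 3313.1 in the wild-type array, so the knockouts were the lowest arrays while heterozygotes and wild-type overlapped. This probe set is on U74Bv2, so it does not check the U74Av2 arrays, and the labels do not say if it falls inside the deletion. The ganglia carried neuronal transcripts in every genotype. The 12 pan-neuronal markers were all measured on U74Av2. They summed to signals of 92320 and 86410 in knockout, 111000 and 90280 in heterozygote and 82300 and 84730 in wild-type arrays. Their knockout minus wild-type differences ran from -1.29 for Syt1 to 0.45 for Ina, and 0 of the 12 were called. On U74Bv2, 6 of them summed to 56120 and 47490 in knockout, 56820 and 52030 in heterozygote and 58020 in wild-type arrays. The differences there ran from -1.28 for Syt1 to 0.46 for Snap25, which was too dim to test. Of the 5 tested, 0 were called. Prph is in this list and in the sensory list that follows. A sum weighs the brightest probe set most, and on U74Av2 that is Prph in the sensory list. Its signals were 4015.2 and 6026.6 in knockout, 9047.9 and 10443.8 in heterozygote and 7325.6 and 11129.6 in wild-type arrays. The median knockout minus wild-type difference of the sensory list there was -0.43. The sum of 7 sensory neuron markers on U74Av2 was 8016 and 9597 in knockout, 15230 and 16710 in heterozygote and 12700 and 18090 in wild-type arrays, and of the 5 that could be tested 1 was called, the actin-binding protein Avil, with a difference of -2.72 against wild-type (limma adjusted p = 0.0125), while the neuropeptide precursor Tac1 stood at 0.64 and was not called. On U74Bv2, which measured 8 of the 10 genes, the list had 2 members, the neurotrophin receptors Ntrk2 and Ntrk3. They summed to 1357 and 1331 in knockout, 817.1 and 971.7 in heterozygote and 764 in wild-type arrays, higher in knockout, and the 1 tested, Ntrk2, was at 0.90 and not called. In whole ganglia, fewer cells of a type and less RNA per cell cannot be told apart, and the part of these marker values in the results below was not tested.

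All 17 probe sets had a lower mean signal in knockout than in wild-type ganglia. The knockout mean was between 4.89% of the wild-type mean for Eepd1 and 58.5% for a Lyrm9 probe set. Both knockout arrays lay below every other array for 2 of 2 probe sets on U74Av2 and 14 of 15 on U74Bv2. Among all tested probe sets this was so for 7.66% and 13.4%, and nothing is read from the members' count because the genes were chosen by this contrast. The exception was a Bves probe set. After leaving out probe sets at or below the 40th percentile of mean log2 signal, 2 of 2 and 13 of 15 were tested. Of these, 2 and 9 were called lower than in wild-type at an adjusted p under 0.05 in limma, where 0.148% and 0.927% of all tested probe sets were, and 1 and 9 were called lower than in heterozygotes, where 0.107% and 1.2% were. Both comparisons use the same knockout arrays, whose low signal chose the genes, so nothing is read from these calls or their counts either. When replicate numbers, whose meaning the labels do not give, were fitted as a block, Olfm1 was also called against heterozygotes and Zdhhc22 in both comparisons. Leaving out any 1 of the 6 U74Av2 arrays left 0 of the 2 called, and on U74Bv2 between 9 and 12 were called against wild-type and between 8 and 12 against heterozygotes.

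**Figure D1:**
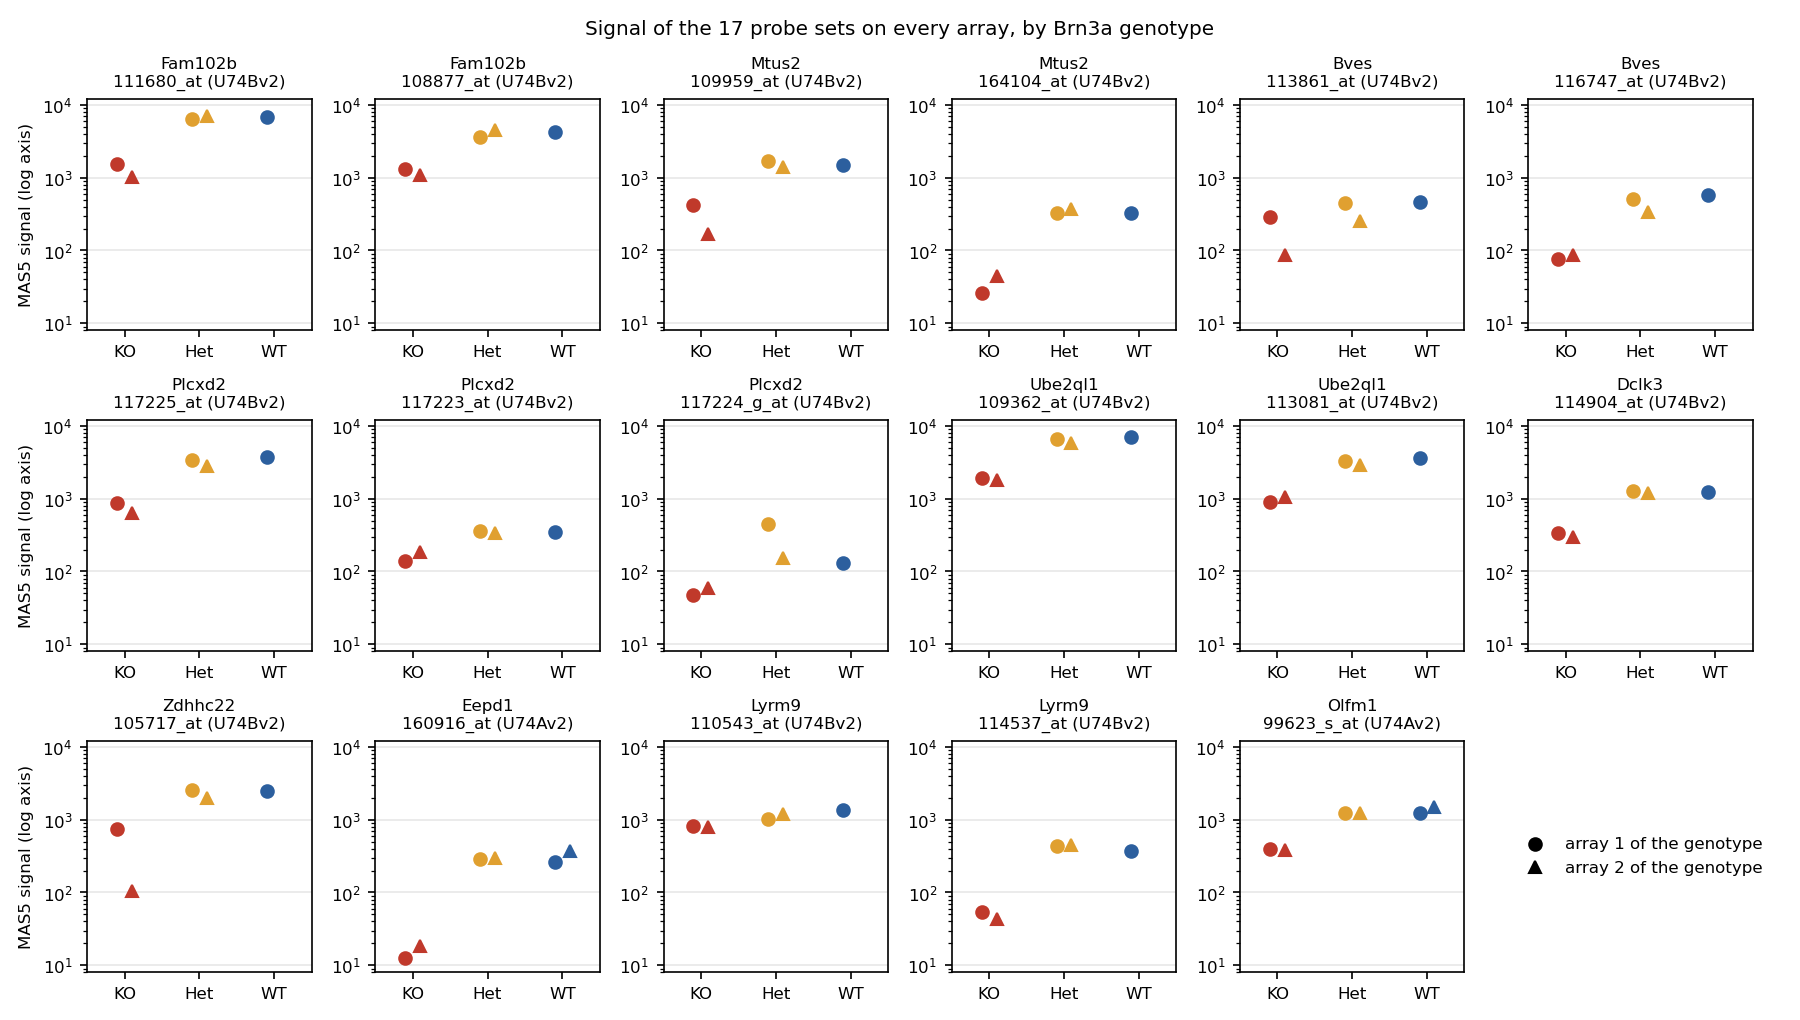
MAS5 signal on a log axis for each of the 17 probe sets, with 1 point per array and the genotypes knockout (KO), heterozygote (Het) and wild-type (WT) from left to right. Circles are array 1 and triangles array 2 of a genotype. The knockout points lie below all others in every panel except that of Bves 113861_at, and the 2 knockout points of Zdhhc22 stand far apart.

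Promoter windows were read to see what the genes share in sequence. RefSeq windows of build GRCm38.p6, from 250 bases before to 50 bases after a transcription start, matched 8 of the 10 genes through 11 windows. Bves and Dclk3 are named only. The windows of 4 genes with several probe sets, on which the knockouts were lowest, are printed 5′ to 3′ on the strand of the gene. Mtus2 is also such a gene, but its windows are not printed. Capitals mark TAAT, the core of many homeodomain sites, and GGGCGG, the GC box, on either strand (ATTA and CCGCCC on the other). The windows are chr3:109027558-109027857 (minus strand) for Fam102b, chr16:46010364-46010663 (minus strand) for Plcxd2, chr13:69739848-69740147 (minus strand) for Ube2ql1 and chr11:78826345-78826644 (plus strand) for Lyrm9.
Fam102b: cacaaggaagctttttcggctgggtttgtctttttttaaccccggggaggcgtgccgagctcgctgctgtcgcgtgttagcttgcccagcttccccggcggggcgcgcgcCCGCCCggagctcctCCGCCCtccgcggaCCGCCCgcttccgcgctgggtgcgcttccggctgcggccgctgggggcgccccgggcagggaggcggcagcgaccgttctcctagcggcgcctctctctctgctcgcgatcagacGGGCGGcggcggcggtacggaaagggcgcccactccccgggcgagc
Plcxd2: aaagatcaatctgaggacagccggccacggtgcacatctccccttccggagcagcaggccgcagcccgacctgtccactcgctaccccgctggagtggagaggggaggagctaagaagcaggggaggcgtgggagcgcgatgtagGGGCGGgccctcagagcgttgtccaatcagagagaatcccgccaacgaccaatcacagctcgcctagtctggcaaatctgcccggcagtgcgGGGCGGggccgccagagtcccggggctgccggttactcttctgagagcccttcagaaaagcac
Ube2ql1: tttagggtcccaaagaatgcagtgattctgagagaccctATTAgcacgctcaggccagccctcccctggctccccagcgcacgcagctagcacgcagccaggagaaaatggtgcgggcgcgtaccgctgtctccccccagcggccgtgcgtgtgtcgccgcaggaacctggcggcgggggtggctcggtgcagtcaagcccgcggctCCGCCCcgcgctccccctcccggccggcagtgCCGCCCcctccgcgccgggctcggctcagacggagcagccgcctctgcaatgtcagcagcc
Lyrm9: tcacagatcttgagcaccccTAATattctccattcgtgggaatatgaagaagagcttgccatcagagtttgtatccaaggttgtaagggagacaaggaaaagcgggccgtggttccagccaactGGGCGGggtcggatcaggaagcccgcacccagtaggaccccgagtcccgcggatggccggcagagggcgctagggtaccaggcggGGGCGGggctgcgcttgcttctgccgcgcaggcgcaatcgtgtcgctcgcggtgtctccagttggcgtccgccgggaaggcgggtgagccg

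The printed windows are rich in G and C, with 73.3% for Fam102b, 64.3% for Plcxd2, 70.7% for Ube2ql1 and 63.0% for Lyrm9. Over the 11 windows the share of G and C was between 54.7% and 73.3% with a median of 69.0%, beside medians of 52.7% over all 32851 windows and 56.3% over the 21263 windows of protein-coding genes. The GC box was in 10 of the 11 windows and in windows of all 8 genes, and in 35.7% of all windows and 46.2% of those of protein-coding genes. TAAT was in 3 windows, those of Ube2ql1 and Lyrm9 and 1 of the 2 Zdhhc22 windows, and in 58.0% of all and 51.8% of protein-coding windows. The longer forms TAATTA and CATNNTAAT, both of which contain TAAT, were in 0 of the 11 windows, and in 5.3% and 2.5% of all windows, searched on both strands. A match is a description of letters in these windows. The Mtus2, Olfm1 and Zdhhc22 genes have 2 windows each, and those of Zdhhc22 overlap, so the 11 windows are not independent.

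Mtus2 and Dclk3 are tied to the microtubule cytoskeleton by their families. Mtus2 encodes a protein that binds growing microtubule ends. Its brighter probe set, 109959_at, had signals of 418.7 and 169.8 in knockout, 1680.0 and 1402.4 in heterozygote and 1479.3 in wild-type ganglia. The knockout arrays did not overlap the others, although they differed from each other by 2.47-fold. The difference was -2.25 ± 0.39 SE against wild-type and -2.31 ± 0.32 against heterozygotes. A dimmer Mtus2 probe set, 164104_at, did not pass the filter and read 25.8 and 45.0 in knockout, 327.7 and 372.5 in heterozygote and 325.7 in wild-type ganglia. The knockouts were again lowest, with a log2 difference of -2.15 against wild-type that is understated, since these knockout signals lie below the amount added before taking log2. In linear signal the knockout mean was 10.9% of wild-type on 164104_at and 19.9% on 109959_at. The calls of 109959_at against both genotypes were lost without the filter, and that against wild-type also without the intensity trend. Dclk3 encodes a serine/threonine kinase of the doublecortin-like group. It had signals of 341.4 and 294.1 in knockout, 1257.2 and 1184.0 in heterozygote and 1235.5 in wild-type ganglia, with little spread within a genotype. The difference was -1.81 ± 0.22 SE against wild-type, 3.50-fold lower, and -1.79 ± 0.18 against heterozygotes.

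Fam102b encodes a protein with an amino-terminal C2 domain, a fold that often contacts membranes. Its probe set 111680_at read 1544.5 and 1032.2 in knockout, 6325.8 and 7009.2 in heterozygote and 6736.4 in wild-type ganglia. A further probe set, 108877_at, read 1307.6 and 1080.6 in knockout, 3624.7 and 4498.3 in heterozygote and 4170.5 in wild-type ganglia. Both separated the knockouts from all other arrays, and the difference measured by the first was larger, -2.37 ± 0.26 SE against -1.77 ± 0.22 for the second in knockout minus wild-type. Whether the probe sets differ in this was not tested. The call of 108877_at against wild-type was lost without the filter.

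Ube2ql1 encodes a protein of the E2 ubiquitin-conjugating enzyme family. Probe set 109362_at had signals of 1918.5 and 1782.0 in knockout, 6521.1 and 5709.8 in heterozygote and 6891.4 in wild-type ganglia. Probe set 113081_at had 909.2 and 1039.9 in knockout, 3232.9 and 2916.4 in heterozygote and 3604.7 in wild-type ganglia. The probe sets gave nearly the same difference from wild-type, -1.87 ± 0.21 SE and -1.84 ± 0.20, and the knockout arrays agreed closely with each other on both. In both, the wild-type array was the highest of the 5.

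Zdhhc22 encodes a DHHC-type palmitoyltransferase, an enzyme that attaches fatty acids to proteins. Its knockout arrays stood far apart. Its signals were 739.2 and 105.5 in knockout, 2527.8 and 2007.0 in heterozygote and 2445.6 in wild-type ganglia. The knockout arrays differed by 7.01-fold from each other and yet lay below all others. The difference was -2.83 ± 0.72 SE against wild-type, the largest of the 15 tested probe sets of these genes on this scale, but not with a pseudocount of 16, where it was -3.02 and that of Eepd1 -3.39. It was -4.01 without knockout array 1 and -1.66 without knockout array 2. Zdhhc22 was not called in the main fit. With the replicate block it was called in both knockout comparisons. With a pseudocount of 100 or the filter at the 60th percentile it was called against heterozygotes only. Fits without a knockout array hold no spread between knockouts, so no call is read from them.

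Plcxd2, which encodes a protein with the catalytic X domain of phosphatidylinositol-specific phospholipase C, was measured by 3 probe sets that did not show the same size of change. Probe set 117225_at read 878.0 and 629.5 in knockout, 3375.5 and 2794.0 in heterozygote and 3674.5 in wild-type ganglia. Probe set 117223_at read 139.7 and 187.3 in knockout, 363.2 and 337.0 in heterozygote and 346.4 in wild-type ganglia. The knockouts lay lowest on both, by -2.23 ± 0.24 SE on the first and -0.90 ± 0.32 on the second against wild-type, and the second was not called. The third, 117224_g_at, is annotated to the same source sequence as the second and did not pass the filter. It read 47.1 and 59.9 in knockout, 452.6 and 150.7 in heterozygote and 129.4 in wild-type ganglia, so that heterozygote array 1 stood well above the other.

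Bves, also called Popdc1, encodes a cAMP-binding membrane protein of the Popeye family, known best from heart and skeletal muscle. Its probe set 116747_at read 77.0 and 86.1 in knockout, 506.7 and 338.4 in heterozygote and 573.1 in wild-type ganglia. Its other probe set, 113861_at, read 288.5 and 86.8 in knockout, 454.8 and 250.6 in heterozygote and 463.8 in wild-type ganglia. On this probe set knockout array 1 lay above heterozygote array 2, and array 2 was the lower in both of these genotypes. The difference from wild-type was -2.25 ± 0.34 SE for 116747_at and -1.26 ± 0.53 for 113861_at, which was not called, and which read -1.91 without knockout array 1 and -0.60 without knockout array 2. The call of 116747_at against heterozygotes was lost without heterozygote array 1, with a difference of -1.56, and its calls against both genotypes were lost without the filter. No call of 113861_at is read from the fits without a knockout array, which hold no spread between knockouts. On U74Av2, 11 muscle markers summed to 3805 and 3044 in knockout, 3415 and 2900 in heterozygote and 3507 and 2851 in wild-type arrays, which overlapped, and 0 of the 8 tested were called. On U74Bv2, where Bves was measured, 1 muscle marker was on the array, Myl1, with signals of 13.8 and 5.8 in knockout, 6.5 and 12.9 in heterozygote and 27.0 in wild-type arrays. Myl1 was too dim there to be tested, and all of these signals lay below the pseudocount.

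Lyrm9, a small protein of the LYR-motif family whose better known members work in mitochondria, was measured by a pair of probe sets that differed in the size of their change. Probe set 114537_at read 53.6 and 43.5 in knockout, 436.9 and 450.0 in heterozygote and 365.6 in wild-type ganglia. Probe set 110543_at read 808.7 and 782.4 in knockout, 1010.2 and 1201.5 in heterozygote and 1360.8 in wild-type ganglia. Knockout arrays were lowest on both, but the difference from wild-type was -2.08 ± 0.34 SE on the first and -0.74 ± 0.21 on the second, which was not called. In linear signal, which the added pseudocount does not compress, the knockout mean was 13.3% of wild-type on 114537_at and 58.5% on 110543_at. The same share was 14.2% and 40.5% on the Bves probe sets 116747_at and 113861_at. It was 20.5%, 47.2% and 41.3% on the Plcxd2 probe sets 117225_at, 117223_at and 117224_g_at, and 26.9% and 27.0% on the Ube2ql1 probe sets 109362_at and 113081_at. The call of 114537_at against wild-type was lost without the filter.

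Eepd1 and Olfm1 were measured on U74Av2, by 1 probe set each. Eepd1 encodes a protein with an endonuclease, exonuclease and phosphatase domain, studied in human cells for the repair of stalled replication forks. Its signals were 12.7 and 18.2 in knockout, 291.2 and 299.7 in heterozygote and 262.0 and 370.2 in wild-type ganglia. The knockout signals were below the pseudocount, so the difference of -2.47 ± 0.28 SE against wild-type understates the ratio of the signals. Its calls against both genotypes were lost without the filter. Olfm1 encodes a secreted olfactomedin-domain glycoprotein of the nervous system, also called noelin or pancortin. Its signals were 390.0 and 386.1 in knockout, 1249.5 and 1247.5 in heterozygote and 1215.8 and 1494.1 in wild-type ganglia. The arrays of a genotype lay close together, and the difference was -1.67 ± 0.21 SE against wild-type and -1.57 ± 0.21 against heterozygotes. The Olfm1 probe set is of the _s_at type, which can match more than 1 transcript.

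Heterozygous ganglia, in which 1 copy of Brn3a is disrupted, were then set against wild-type ganglia, a contrast that did not pick the genes although it shares the wild-type and heterozygote arrays with those that did. None of the probe sets was called, 0 of 2 on U74Av2 and 0 of 13 on U74Bv2 (limma, adjusted p = 1.00 for each), where 0% of all tested probe sets was called on either array type. At an unadjusted p under 0.05 the counts were also 0 of 2 and 0 of 13, against 0.698% and 3.8% of all tested probe sets. The heterozygote minus wild-type differences of those tested lay between -0.11 and -0.07 on U74Av2 and between -0.42 and 0.25 on U74Bv2, with medians of -0.09 and -0.12 beside -0.01 and 0.01 over all tested probe sets. Below 0 were 2 of 2 on U74Av2 and 10 of 13 on U74Bv2, as were 51% and 49% of all tested, and on U74Bv2 the single wild-type array behind this count also entered the choice of the genes.

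The width of the intervals differed between genes. The 95% interval of heterozygote minus wild-type ran from -0.60 to 0.57 for Fam102b 111680_at, from -0.52 to 0.48 for Dclk3, from -0.65 to 0.30 for Ube2ql1 109362_at and from -0.60 to 0.39 for Olfm1. These intervals leave out a log2 difference of -1, a halving on this scale. The interval stayed above -1 for 2 of 2 tested probe sets on U74Av2 and 10 of 13 on U74Bv2, beside 82.9% and 88.7% of all tested. It reached below -1 for the other 3, which were Zdhhc22, from -1.76 to 1.53, and both Bves probe sets, from -1.61 to 0.81 for 113861_at and from -1.21 to 0.36 for 116747_at. For these 2 genes a halving in heterozygotes was not excluded. Over the 15 U74Bv2 probe sets, 2 of which did not pass the filter, both heterozygote arrays lay below the wild-type array for 6. Both lay below it for 31% of all tested probe sets. Both lay above it for 3 and on either side of it for 6. The shares of all tested probe sets in these last positions were not computed, so nothing is read from those counts. On U74Av2 the 2 genotypes overlapped for 2 of 2, and heterozygotes lay wholly below wild-type for 7.96% of all tested.

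**Figure D2:**
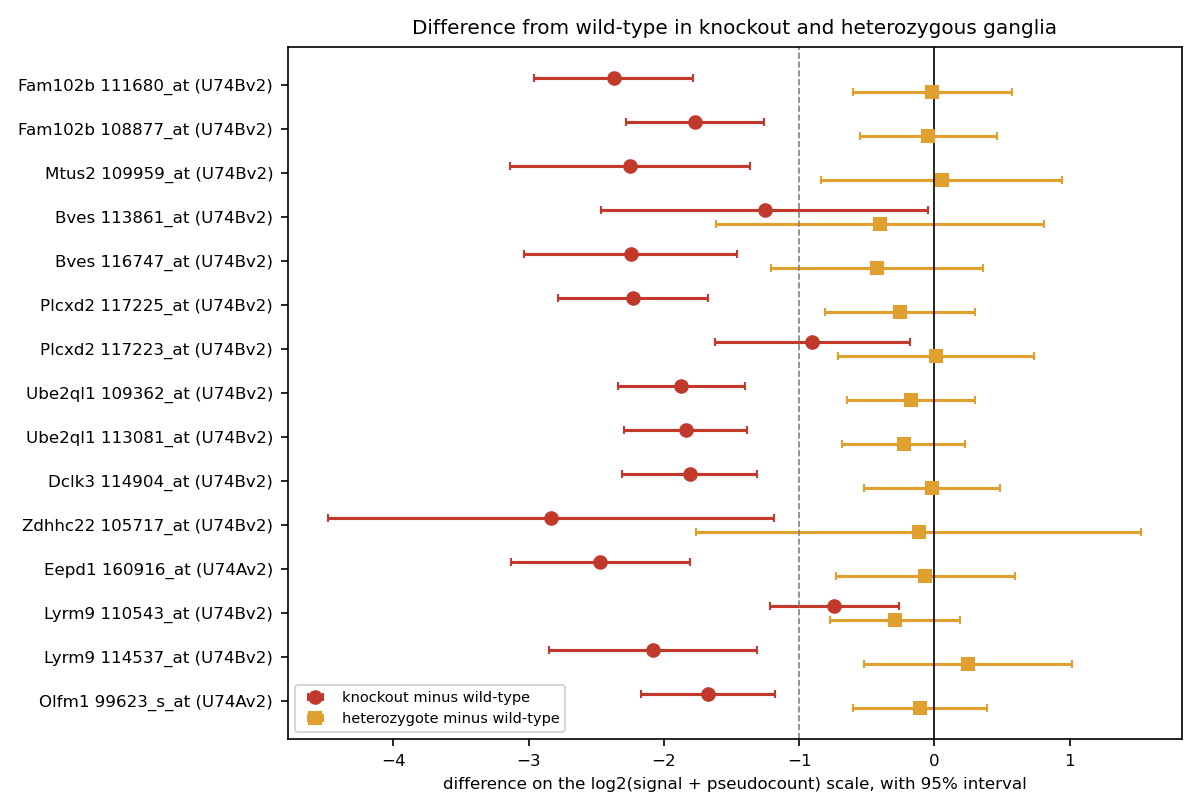
Differences on the log2(signal + pseudocount) scale, with 95% intervals from limma, for the 15 tested probe sets. Red circles are knockout minus wild-type and yellow squares heterozygote minus wild-type, and the dashed line marks -1. The heterozygote values lie between -0.42 and 0.25, and the knockout values between -2.83 and -0.74.

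Genes of the same protein families were listed to see whether relatives moved as well. Of 46 listed symbols 37 were on the arrays, and 32 of them were tested through 50 probe sets. On U74Bv2 1 of 38 probe sets was called lower in knockout than in wild-type and 0 higher, where 0.927% and 0.47% of all tested probe sets were. On U74Av2 0 of 12 were called, where 0.255% of all tested probe sets were. At an unadjusted limma p under 0.05 the counts were 2 of 38 on U74Bv2, both of Mtus1, and 0 of 12 on U74Av2. The share of all tested probe sets at that unadjusted threshold was not computed. The median difference of the relatives was 0.02 on U74Bv2 and -0.05 on U74Av2, beside 0.02 over all tested probe sets on both.

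The relative that fell was Mtus1, the closest relative of Mtus2 and likewise a microtubule-associated protein. Its probe set 109124_at read 832.4 and 984.0 in knockout, 2392.5 and 2202.2 in heterozygote and 2224.0 in wild-type ganglia. The knockout arrays lay below all others, with a difference of -1.25 ± 0.20 SE against wild-type (limma adjusted p = 0.0260) and -1.30 against heterozygotes (adjusted p = 0.00665). The adjusted p against wild-type ranged from 0.00197 to 0.108 over the alternative settings, and the call was lost without the filter and without the intensity trend. A dimmer Mtus1 probe set, 115915_at, read 229.4 and 220.8 in knockout, 489.6 and 608.9 in heterozygote and 440.2 in wild-type ganglia, with a difference of -0.83 ± 0.28 SE that did not pass (adjusted p = 0.283). The knockout arrays were thus the lowest on both Mtus1 probe sets, as they were on 13.4% of all tested U74Bv2 probe sets. The same held for both Mtus2 probe sets, but nothing is read from that because Mtus2 was chosen by this contrast.

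None of the other families with a tested relative had a called one. The only measured relatives of Plcxd2 and Olfm1, which were Plcxd1 and Olfm4, were too dim to test. No relative of Eepd1 was measured, so nothing can be said of these families. The 18 palmitoyltransferase genes other than Zdhhc22 that were tested, through 28 probe sets, had differences between -0.53 and 0.69. The extremes were Zdhhc7 165039_r_at at -0.53 ± 0.28 SE (limma adjusted p = 0.577) and Zdhhc9 116306_at at 0.69 ± 0.34 (adjusted p = 0.527). On U74Av2, Zdhhc14 stood at -0.47 ± 0.31 SE, Zdhhc16 at -0.29 ± 0.32 and the LYR-motif subunit of respiratory complex I Ndufb9 at -0.35 ± 0.33. The doublecortin relatives of Dclk3, which were Dclk1, Dclk2 and the neuronal microtubule protein Dcx, lay between -0.27 and 0.39 over 6 probe sets. Dcx had signals of 6580.5 and 6696.3 in knockout, 5892.3 and 5795.7 in heterozygote and 4753.0 and 5428.3 in wild-type ganglia, which did not overlap. The share of all tested probe sets in this order was not computed, so nothing is read from it. The Dcx difference of 0.38 ± 0.19 SE did not pass (limma adjusted p = 1.00). Ube2q1 and Ube2q2 lay between 0.14 and 0.37 over 4 probe sets, and the LYR-motif relatives between -0.35 and 0.23 over 8. Fam102a stood at 0.11 ± 0.23 SE and Popdc2, a Popeye-family relative of Bves, at -0.24 ± 0.23. Whether a gene differed from its relatives in its response was not tested.

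**Figure D3:**
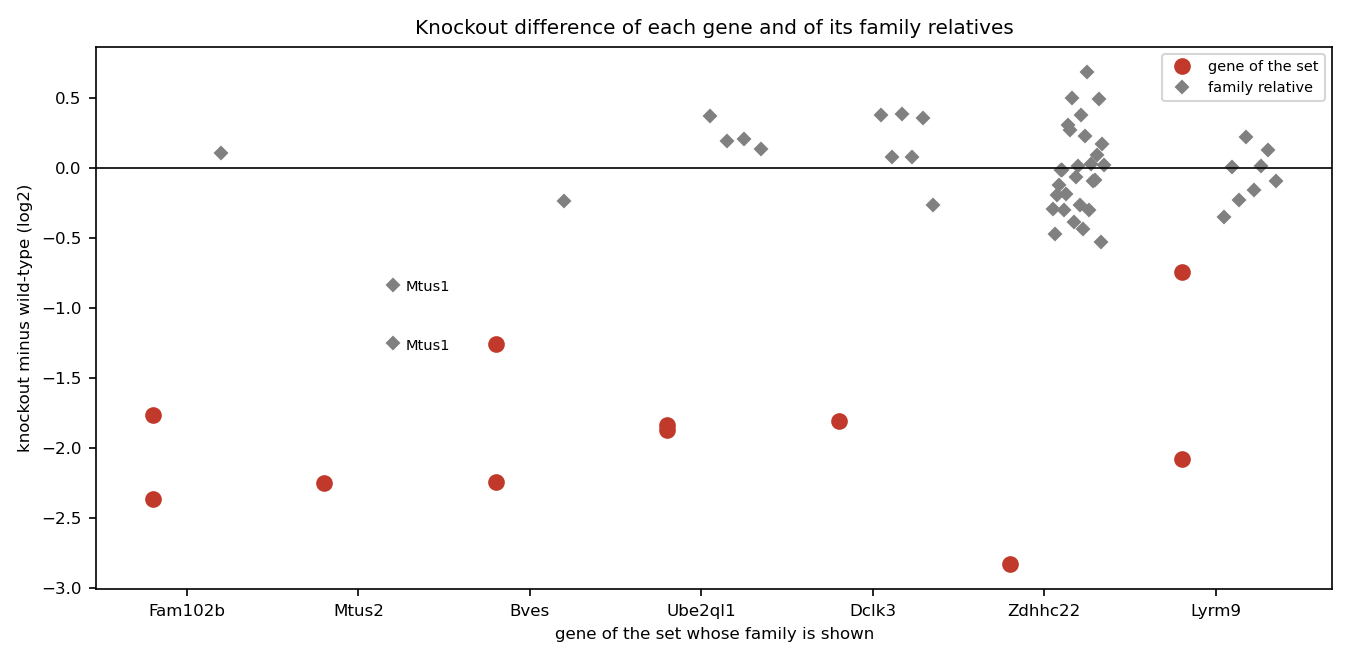
Knockout minus wild-type difference (log2) for tested probe sets of 7 of the genes (red circles, left) and of their family relatives (grey diamonds, right). The relatives lie between -0.53 and 0.69 except for the 2 Mtus1 probe sets, at -1.25 and -0.83.

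The genes whose profile over the arrays was most like that of each member were found by the root-mean-square distance between log2 profiles centred on their mean. The profile most like that of Fam102b over the 5 U74Bv2 arrays was that of the runt-domain transcription factor Runx1, at a distance of 0.10, followed by Lyrm9 114537_at at 0.17. Ube2ql1 was nearest to the RNA-binding protein Rbfox1 and the actin-bundling protein Pls1, both at 0.05. Dclk3 was nearest to Ube2ql1 at 0.07 and then to Pls1 at 0.09. The median distance to all other probe sets was between 0.89 and 1.19 for these 3. Nothing is read from this gap, because the genes were chosen for a knockout step that most probe sets lack. Mtus2 and Zdhhc22 shared the diacylglycerol kinase Dgkh as their nearest gene, at 0.15 for Mtus2 and at 0.44 for Zdhhc22, the largest nearest distance of the 10 genes.

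Plcxd2 lay nearest to the adaptor Dok4 (0.11) and to Sytl2 (0.16), a protein of vesicle transport. Bves, through its brighter probe set, lay nearest to Cyp4f15 (0.10) and Cend1 (0.18), and the brighter Lyrm9 probe set to Ivns1abp (0.04) and Carnmt1 (0.05). Over the 6 U74Av2 arrays Eepd1 was nearest to the homeobox factor Hmx1 (0.18) and to Avil (0.19), and Olfm1 to the signalling adaptor Shc1 (0.10) and the actin regulator Wipf1 (0.14). The distances rest on 5 or 6 arrays that mostly differ in the knockout step.

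**Figure D4:**
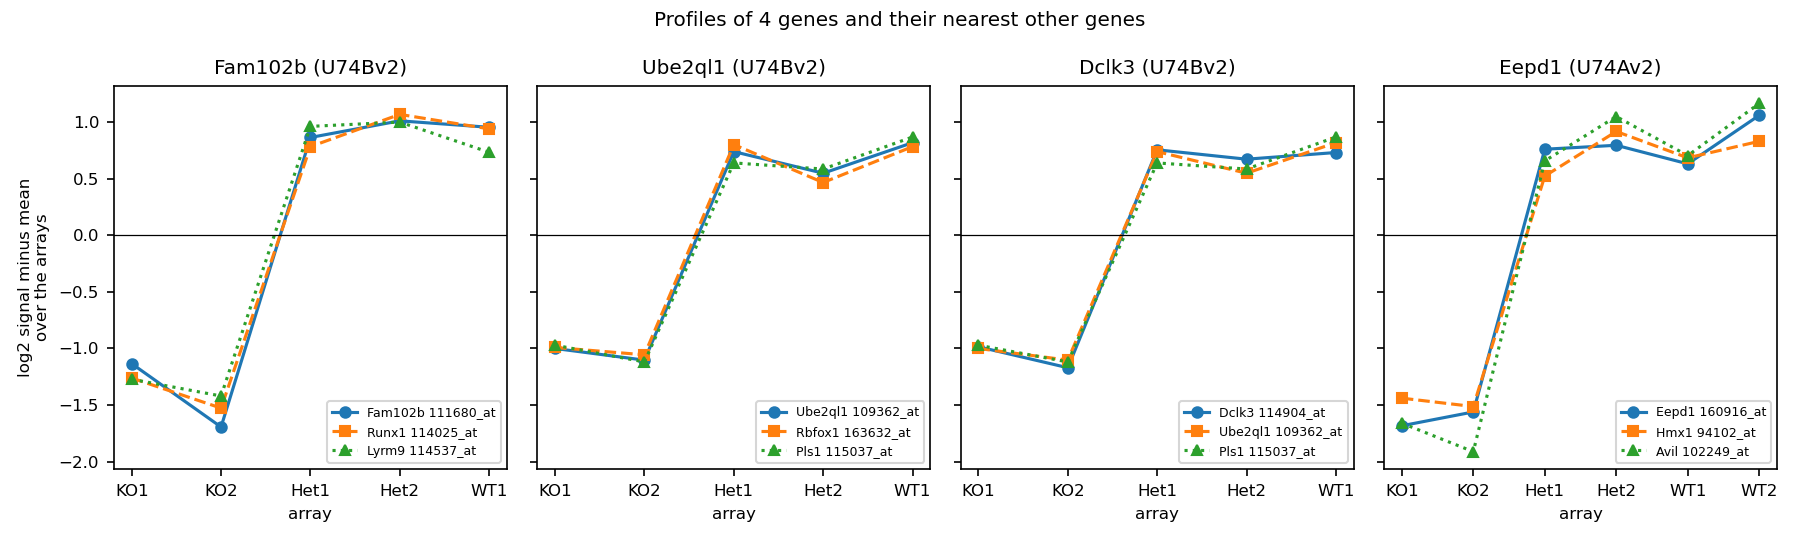
Log2 signal of each array minus the mean over the arrays, for Fam102b, Ube2ql1, Dclk3 and Eepd1 (circles) and the 2 genes with the nearest profile (squares and triangles). Knockout arrays (KO) are on the left, then heterozygote (Het) and wild-type (WT). Each panel shows low values in both knockout arrays and high values in all others.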

How the data were processed

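Total RNA of pooled trigeminal ganglia was measured on Affymetrix U74Av2 (6 arrays) and U74Bv2 (5 arrays) chips. The deposited values are microarray intensities, linear MAS5 signals with 1 value a probe set, per the submitters' processing notes and the values. MAS5's version and scaling target: not given in the sources used here. After trimming 2% at each end, the means lay between 500.26 and 500.29 on U74Av2 and between 497.61 and 498.38 on U74Bv2, so no further scaling was applied. Samples were grouped by the genotype in their titles. Symbols came from the platform annotation, updated by Entrez identifier with a RefSeq table of GRCm38.p6 (0 changed); 396 and 178 probe sets with several symbols were not named.

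The pseudocount was 0.1 of the mean trimmed mean. The 66 controls and probe sets at or below the 40th percentile of mean log2 signal were left out, leaving 7453 and 7446. limma 3.58.1 in R 4.3.3 (eBayes with an intensity trend) used all arrays of a type, with Benjamini-Hochberg adjustment over all tested probe sets, called under 0.05, two-sided. The lone wild-type U74Bv2 array was assumed to vary like the other genotypes. The fit was tested on simulated data. Alternatives were the replicate number as a block, pseudocounts of 16 and 100, no filter, a filter at the 60th percentile, quantile normalization, no trend and leaving out each array. Every probe set of the 10 genes is named, from the relatives those called and up to 4 with the largest difference per array type or the ends of a family's range, and the 2 nearest profiles of the brightest probe set of each gene. The genes, lists and tests were chosen with earlier results of these data known.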

Additional observations from a re-analysis of the deposited data

How the results depend on the processing

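All 336 member differences between knockout and the other genotypes recomputed under the alternatives stayed below 0, the direction by which the genes were chosen. Of 563 single values of the members and Mtus1, 514 stayed on the same side of the threshold, 30 lost a call and 19 gained one. Of the 514, 286 were called neither in the main fit nor in the alternative at hand, and 17 of these 286 turned sign. The count of members called against wild-type on U74Av2 was 2. It was 1 without the filter, where Eepd1 lost its call, and 1 with the filter at the 60th percentile, where Eepd1 was not tested. Against heterozygotes the count was 1, 2 with the replicate block and 0 without the filter. At the 60th percentile it was 0, with Eepd1 again not tested. Leaving out an array gave 0 to 0 in both. On U74Bv2 9 were called against wild-type, 5 without the filter and 9 to 12 without an array, and 8 to 12 without an array against heterozygotes. The relatives called there were 1, 0 without the filter and 0 without the trend, and 1 to 1 without an array. Heterozygote against wild-type gave 0 members in every setting. The labels do not say what the replicate numbers mark. Array 1 minus array 2 correlated between genotypes at 0.53 to 0.62 over tested U74Av2 probe sets and at 0.10 on U74Bv2. The replicate block raised the calls over all probe sets for knockout against wild-type to 130 from 19 on U74Av2 and to 216 from 104 on U74Bv2, against heterozygotes to 129 from 14 and to 317 from 127, and heterozygote against wild-type to 7 from 0 on U74Bv2. It called Zdhhc22 in both knockout comparisons and Olfm1 against heterozygotes. Without the filter 21 and 54, and without the trend 40 and 81, were called on U74Bv2 against wild-type and heterozygotes, and the 60th percentile gave 11 and 8 on U74Av2. Leaving out an array gave 0 to 15 and 0 to 11 calls on U74Av2, and 115 to 178 and 130 to 188 on U74Bv2, with up to 10 for heterozygote against wild-type. The causes were not tested. Without the wild-type U74Bv2 array no comparison with wild-type could be fitted. Signals near or below the pseudocount, as for Eepd1 in knockout, give only a compressed difference.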

Other observations

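Popdc3, the third gene of the Popeye family to which Bves belongs, was too dim on U74Av2 to be tested and was singled out after its values were seen. Its signals were 11.3 and 9.2 in knockout, 87.8 and 55.5 in heterozygote and 58.3 and 74.9 in wild-type ganglia, so both knockout arrays lay below the others. The log2 difference was -0.95 against wild-type, with all values near or below the pseudocount and no test.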
